A study of Homo sapiens with 9 samples.

Results

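The 60 genes described here encode ribosome biogenesis factors, the nucleolar proteins that make ribosomes without being part of the finished particle. They were chosen by symbol from a list of such factors, and all 60 were found among the 27800 symbols of the table. Testing was limited to the 13573 symbols that reached 1 TPM in 3 or more libraries, and all 60 were among them. RNA was sequenced from Huh7, an established human hepatocellular carcinoma line. Of the 9 libraries, 3 came from cells given 5 uM FIDAS-5, an inhibitor of the methionine adenosyltransferase MAT2A, for 48 h. Another 3 came from cells given 0.5 uM JQ1, an inhibitor of the BET bromodomain proteins, for 48 h, and 3 came from cells given vehicle. The study compared the transcriptome with and without each inhibitor. Each compound was used at 1 dose and 1 time in 1 cell line and the vehicle is not named. Nothing in the labels says that replicate libraries were grown as separate cultures, so every p-value here reflects the scatter of these libraries alone, and that scatter may be technical.

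Ribosomes are built in the nucleolus. RNA polymerase I transcribes the precursor of the ribosomal RNAs, small nucleolar ribonucleoproteins (snoRNPs) guide its methylation and pseudouridylation, and a large complex called the small subunit processome folds and cuts the part that becomes the small subunit. A second line of factors builds the large subunit, and most of them leave the particle before or shortly after its export. The pathway takes up much of the biosynthetic effort of growing cells, and its genes are a textbook group of targets of the transcription factor MYC, which with its partner MAX binds the E-box CACGTG.

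The deposited values were TPM, a transcript's share of its library after scaling for length. They can be compared between genes, but they hold no counts, so depth is unknown. A level is a share of its library, so less of an RNA and more of the other RNA in the library cannot be told apart. Protein-coding genes made up 27.6 to 34.0% of the TPM of a library. Between 12229 and 13014 symbols reached 1 TPM in a library, and correlations across genes between libraries of a group were 0.952 to 0.975. The liver markers ALB, APOA1, APOB, TTR, SERPINA1, AFP and HNF4A were at 67.5 TPM or more in every library. Of 14 markers of leukocytes, fibroblasts and endothelium, and cholangiocytes, 7 stayed under 1 TPM in every library, and KRT7 was listed at 0 in all 9. The summed leukocyte markers, mostly LYZ, were 230 to 286 TPM with FIDAS-5, 12.4 to 17.6 TPM with JQ1 and 106.0 to 128 TPM with vehicle. The fibroblast and endothelial sums, mostly PECAM1, were 16.8 to 18.4 TPM with FIDAS-5, 2.78 to 3.30 TPM with JQ1 and 8.51 to 11.1 TPM with vehicle. The cholangiocyte sums were 21.5 to 34.0 TPM with FIDAS-5, 29.4 to 44.5 TPM with JQ1 and 25.4 to 30.4 TPM with vehicle. The part of these markers in the results below was not tested.

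The E-box was looked for in the RefSeq promoter windows (build GRCh38.p14), which run from 250 bases before to 50 after a gene's start and were found for 50 of the 60 members. The 6 letters CACGTG, which read the same on both strands, were present in the window of 18 of 50 members (36%) and of 1407 of 15843 protein-coding genes (8.88%). Most of the members' sites lay just inside the transcript: 13 of 50 members (26%) had the letters wholly within the first 50 transcribed bases, against 158 of 15843 genes (0.997%). The difference upstream was small, with 5 of 50 members (10%) and 1242 of 15843 genes (7.84%) holding a site in the 250 bases before the start. The split of the window was made after the sites were seen, and a match is a description of the letters and not a shown binding site. The sites of 8 members that were called lower with JQ1 are shown here with their surroundings, 30 bases each, 5′ to 3′ on the gene's strand, with the E-box in capitals.
FBL, chr19:39846356-39846385, minus strand: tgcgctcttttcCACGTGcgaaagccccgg
RRP9, chr3:51941892-51941921, minus strand: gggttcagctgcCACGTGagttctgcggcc
UTP20, chr12:101280083-101280112, plus strand: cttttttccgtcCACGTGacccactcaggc
IMP4, chr2:130342900-130342929, plus strand: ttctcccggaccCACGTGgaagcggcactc
WDR43, chr2:28894658-28894687, plus strand: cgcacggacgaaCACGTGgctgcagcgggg
PNO1, chr2:68157885-68157914, plus strand: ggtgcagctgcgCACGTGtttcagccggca
PES1, chr22:30591880-30591909, minus strand: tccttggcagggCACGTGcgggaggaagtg
NOP2, chr12:6568242-6568271, minus strand: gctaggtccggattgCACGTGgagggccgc
The 250 bases before the starts of 2 members of the small subunit processome whose E-box lies upstream are shown whole, with the E-box in capitals.
UTP20, chr12:101279855-101280104, plus strand: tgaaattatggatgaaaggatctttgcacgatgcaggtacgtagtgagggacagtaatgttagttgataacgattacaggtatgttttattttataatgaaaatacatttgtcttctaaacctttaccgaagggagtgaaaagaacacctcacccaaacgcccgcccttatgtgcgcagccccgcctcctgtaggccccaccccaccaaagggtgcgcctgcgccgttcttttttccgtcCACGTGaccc
UTP4, chr16:69132399-69132648, plus strand: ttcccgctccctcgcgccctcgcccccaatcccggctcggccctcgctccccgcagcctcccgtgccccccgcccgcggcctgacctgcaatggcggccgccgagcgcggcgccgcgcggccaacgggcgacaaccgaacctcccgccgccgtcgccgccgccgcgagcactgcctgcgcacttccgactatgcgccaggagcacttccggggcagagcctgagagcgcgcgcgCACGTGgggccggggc
Members with and without the letters were called lower with JQ1 at similar shares. Of the 18 members with the E-box 15 were called lower with JQ1 (median log2 fold change -0.70), and of the 32 without it 26 were called lower (median -0.86). Among all tested genes 19.4% were called lower with JQ1. With FIDAS-5 the counts were 4 of 18 (median -0.27) and 2 of 32 (median -0.37), where 7.6% of all tested genes were called lower. These counts are small, the medians run the other way, and the difference was not tested.

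Summed over all 60 members, the level was 1770 ± 229 TPM with FIDAS-5, 1443 ± 231 TPM with JQ1 and 2456 ± 174 TPM with vehicle (SD, n = 3 each). The libraries of both compounds lay below those of vehicle: 2028, 1693 and 1590 TPM with FIDAS-5 and 1626, 1520.3 and 1183 TPM with JQ1, against 2287, 2635 and 2447 TPM with vehicle. As a share of the TPM of protein-coding genes, the members made up 0.589% ± 0.0248 with FIDAS-5, 0.454% ± 0.0250 with JQ1 and 0.790% ± 0.0329 with vehicle, and by that measure the JQ1 libraries also lay below all FIDAS-5 libraries. NPM1 alone, the abundant nucleolar chaperone nucleophosmin, gave 16.9 to 21.2% of the sum with FIDAS-5, 23.1 to 30.6% with JQ1 and 25.2 to 28.3% with vehicle. In vehicle cells the mean levels of the members ran from 3.78 TPM for NOC4L to 658 TPM for NPM1, with a median of 17.1 TPM. Only NPM1, NOP10, FBL and IMP3 were above 100 TPM there, and 15 members were under 10 TPM.

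**Figure D1:**
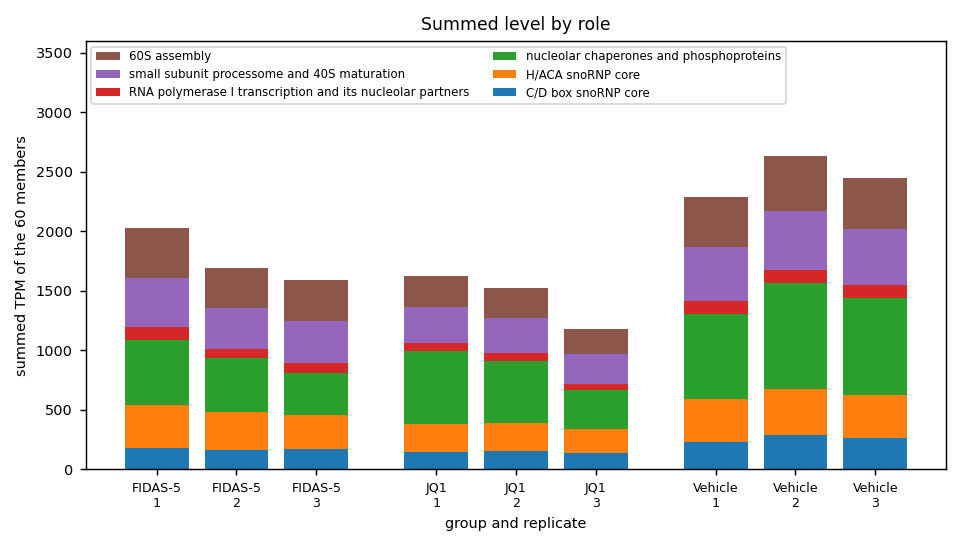
Summed TPM of the 60 members (y axis) in each library (x axis, by group and replicate), stacked by role. The FIDAS-5 bars reach 1590 to 2028 TPM and the JQ1 bars 1183 to 1626 TPM, below the vehicle bars at 2287 to 2635 TPM.

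Most of the members were lower with JQ1. Of the 60 members 48 were called lower against vehicle and none higher (limma, adjusted p under 0.05 over all tested genes), which is 80% of the members where 19.4% of all tested genes were called lower. The median log2 fold change was -0.82 over the members and -0.01 over all tested genes. All 3 JQ1 libraries lay below all 3 vehicle libraries in 51 members, and in 26.2% of all genes, while none had all 3 above (24.5% of all genes). The called falls ran from -0.41 to -1.59 on the log2(TPM + 1) scale, and 20 of them were at least 1, that is 2-fold. With any 1 of the 9 libraries left out, 37 to 47 members were called lower (61.7 to 78.3%, against 14.5 to 19.3% of all genes), and 35 of the 48 kept their call every time.

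With FIDAS-5 fewer members passed the test. Against vehicle 8 of the 60 were called lower (13.3%, where 7.6% of all tested genes were called lower) and none higher, although 12.6% of all tested genes were called higher. The log2 fold change was below 0 in 49 members, with a median of -0.37 over the members and -0.02 over all tested genes. All 3 FIDAS-5 libraries lay below all 3 vehicle libraries in 26 members (43.3%, against 18.4% of all genes), and all above in none (20.9% of all genes). The count of 8, and its distance from the share of all genes, rested on single libraries. Without FIDAS-5 replicate 3 only 2 members were called lower (3.33%, against 3.86% of all genes), and without FIDAS-5 replicate 2 only 3 were (5%, against 4.53%). Without vehicle replicate 2 or 3 the count was 4 (6.67%, against 5.42% and 4.15% of all genes), and without JQ1 replicate 2 it was 5 (8.33%, against 6.03%). In these fits fewer percentage points separated the members' share from that of all genes than in the fit of all libraries. Without FIDAS-5 replicate 1 or JQ1 replicate 1 the count stayed at 8 (13.3%, against 6.62% and 7.31%). It was 11 without vehicle replicate 1 (18.3%, against 6.87%) and 12 without JQ1 replicate 3 (20%, against 10.9%). The count was 13 with median-of-ratios scaling (21.7%, against 10.8% of all genes), 18 with quantile normalization (30%, against 12.9%) and 27 with the trend on GC content removed (45%, against 15.5%). All 8 were also called lower with JQ1, as were 48 of the 60 members (80%), so most of any 8 members would be. Both comparisons share the vehicle libraries, so the 2 sets of fold changes are not independent of each other.

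**Figure D2:**
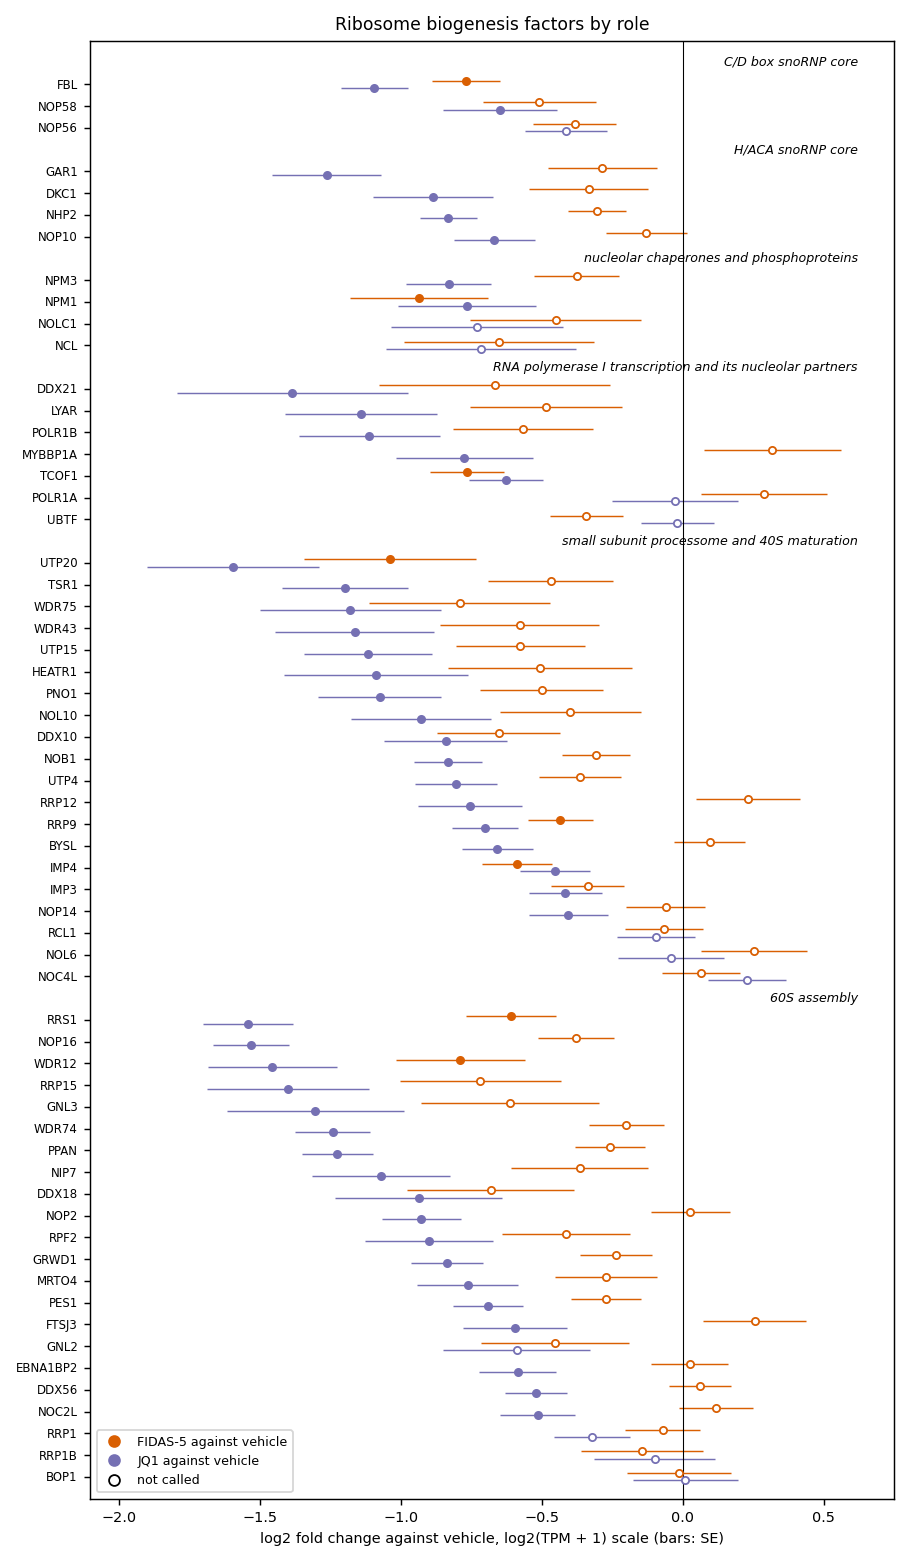
Log2 fold change against vehicle (x axis, log2(TPM + 1) scale, bars SE) of each of the 60 members (rows, grouped by role), orange for FIDAS-5 and purple for JQ1, filled where called. The purple points are filled in 48 rows and the orange points in 8, and most purple points lie to the left of the orange ones.

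The snoRNP cores were among the lower genes. FBL, the methyltransferase of the C/D box snoRNPs, was at 93.8, 92.4 and 89.3 TPM with FIDAS-5, 68, 77.7 and 73.9 TPM with JQ1 and 144, 173 and 156 TPM with vehicle. It was lower with either compound, with no overlap of libraries and log2 fold changes of -0.77 (SE 0.12, adjusted p = 0.00252) with FIDAS-5 and -1.09 (SE 0.12, adjusted p = 0.000199) with JQ1. Both calls held under every alternative run. Its scaffold partners NOP56 and NOP58 were at 68.2 ± 5.25 and 10.9 ± 2.09 TPM with FIDAS-5, 66.8 ± 5.01 and 9.86 ± 2.48 TPM with JQ1 and 89.9 ± 14.1 and 15.7 ± 1.43 TPM with vehicle (SD, n = 3). Of these NOP58 was called lower with JQ1 (-0.65, adjusted p = 0.0318), but not when replicate 2 or 3 of either JQ1 or vehicle was left out (adjusted p up to 0.101), while NOP56 missed the threshold (adjusted p = 0.0516).

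All 4 proteins of the H/ACA snoRNPs, which carry the pseudouridine synthase dyskerin, were called lower with JQ1, where 19.4% of all tested genes were. None was called with FIDAS-5, where 7.6% of all tested genes were called lower. All 4 log2 fold changes with FIDAS-5 were below 0 (median -0.29). NHP2, a core protein that is also part of the telomerase ribonucleoprotein, was at 62.8, 61.3 and 61.6 TPM with FIDAS-5, 43, 42 and 43.1 TPM with JQ1 and 74.6, 76.2 and 79.4 TPM with vehicle. The libraries of each group lay within a few TPM of each other and the 3 groups did not overlap. The log2 fold change of NHP2 was -0.83 (SE 0.10, adjusted p = 0.00037) with JQ1 and -0.30 (SE 0.10, adjusted p = 0.0675) with FIDAS-5. NOP10, the smallest protein of the complex and its most abundant member here, was at 267, 228 and 202 TPM with FIDAS-5, 166, 173 and 139.5 TPM with JQ1 and 252, 267 and 239.9 TPM with vehicle. The JQ1 libraries lay below all others, and FIDAS-5 and vehicle libraries overlapped (JQ1 against vehicle -0.67, SE 0.14, adjusted p = 0.00632). DKC1, which encodes dyskerin, changed by -0.89 with JQ1, and GAR1 by -1.26, the largest fall of the 4.

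**Figure D3:**
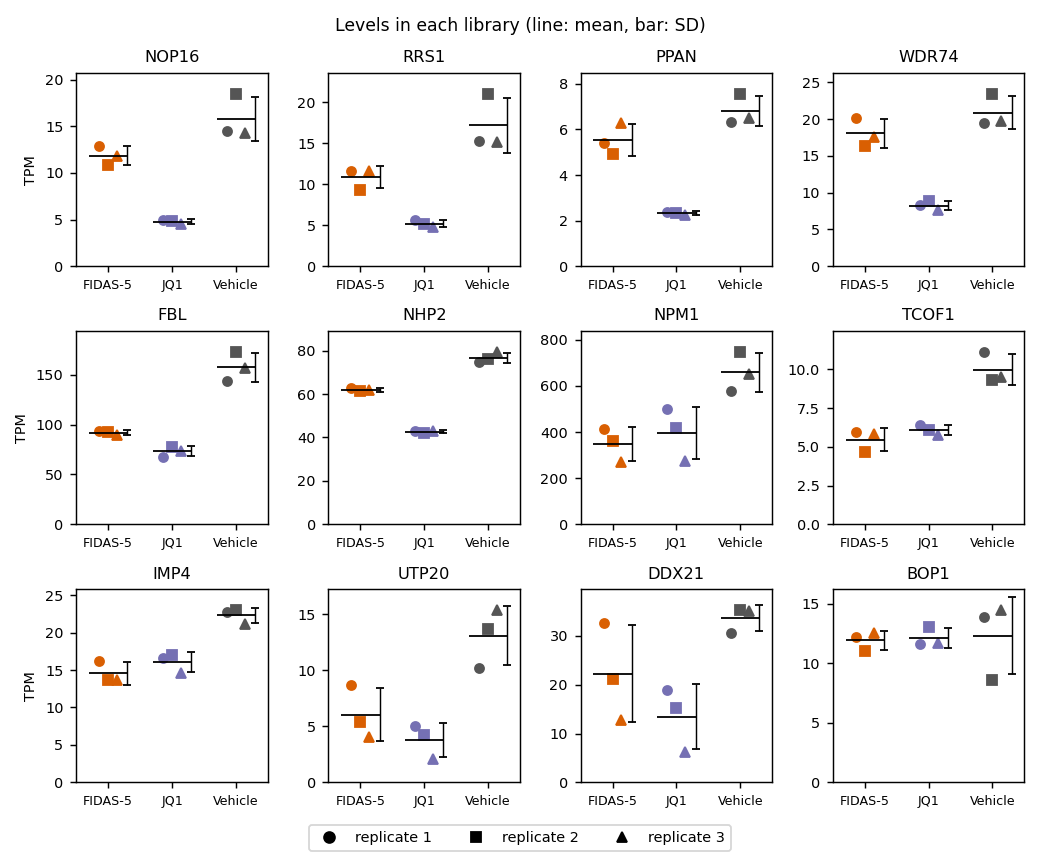
TPM (y axis, from 0) in each library for 12 members, by group, with a marker per replicate, a line at the mean and a bar for the SD. NOP16, RRS1, PPAN and WDR74 are lowest with JQ1, FBL, NPM1, TCOF1 and IMP4 are lower with both compounds, DDX21 spreads widely within both treated groups, and BOP1 overlaps in all groups.

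Among the abundant nucleolar chaperones, NPM1 was at 414, 359 and 269 TPM with FIDAS-5, 498, 417 and 273 TPM with JQ1 and 577, 747 and 651 TPM with vehicle. Each treated library lay below every vehicle library, and in both treated groups replicate 3 was the lowest. The log2 fold change was -0.94 (SE 0.24, adjusted p = 0.0272) with FIDAS-5 and -0.77 (SE 0.24, adjusted p = 0.0353) with JQ1. The FIDAS-5 call was lost without FIDAS-5 replicate 2 or 3 or vehicle replicate 2 or 3 (adjusted p up to 0.102), and the JQ1 call without JQ1 replicate 2 or 3, FIDAS-5 replicate 2 or vehicle replicate 2 or 3 (adjusted p up to 0.108). NPM1 has many processed pseudogenes, so its separate level is uncertain. NPM3, a relative of NPM1, was called lower with JQ1 (-0.83). NCL, which encodes nucleolin, was at 57 ± 17.9 TPM with FIDAS-5, 56.5 ± 23.3 TPM with JQ1 and 88 ± 12.6 TPM with vehicle and was not called, nor was NOLC1, a chaperone of snoRNPs.

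Of the 7 genes around RNA polymerase I, 5 were called lower with JQ1 (71.4%, against 19.4% of all tested genes). With FIDAS-5 1 was called lower (14.3%, against 7.6%). TCOF1, which encodes treacle, a nucleolar partner of the polymerase that is mutated in Treacher Collins syndrome, was at 5.96, 4.65 and 5.82 TPM with FIDAS-5, 6.44, 6.07 and 5.76 TPM with JQ1 and 11.1, 9.33 and 9.49 TPM with vehicle. It was lower with FIDAS-5 (-0.76, SE 0.13, adjusted p = 0.00406) and with JQ1 (-0.63, SE 0.13, adjusted p = 0.00547), and its groups of treated libraries overlapped each other but not vehicle. POLR1B, the second largest subunit of the polymerase, was called lower with JQ1 (-1.11), while POLR1A, the largest, was at 16.4 ± 3.90 TPM with FIDAS-5, 12.7 ± 0.31 TPM with JQ1 and 13.3 ± 3.69 TPM with vehicle and was not called. UBTF, which binds the ribosomal DNA, was at 7.07, 5.57 and 6.82 TPM with FIDAS-5, 8.76, 8.48 and 7.78 TPM with JQ1 and 8.65, 9.17 and 7.62 TPM with vehicle. Its JQ1 and vehicle libraries overlapped (-0.02, adjusted p = 0.921), and with FIDAS-5 it was lower in all 3 libraries but not called (adjusted p = 0.101). DDX21, an RNA helicase of the nucleolus and the most abundant of these 7 genes, was at 32.7, 21.2 and 12.8 TPM with FIDAS-5, 19, 15.3 and 6.14 TPM with JQ1 and 30.6, 35.3 and 35.1 TPM with vehicle. Its call with JQ1 (-1.39, SE 0.41, adjusted p = 0.0257) was lost without vehicle replicate 2 or 3 (adjusted p up to 0.0729), and within both treated groups its level differed more than 2-fold between replicates 1 and 3. LYAR and MYBBP1A, other nucleolar proteins, were called lower with JQ1 (-1.14 and -0.78), the second of them not without JQ1 replicate 1 or 2 or vehicle replicate 1 or 3 (adjusted p up to 0.0882).

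Of the 20 genes of the small subunit processome and later small subunit maturation, 17 were called lower with JQ1 (median -0.82) and 3 with FIDAS-5 (median -0.42), which is 85% and 15% where 19.4% and 7.6% of all tested genes were called lower. UTP20, a large scaffold protein of the processome, was at 8.69, 5.40 and 4.05 TPM with FIDAS-5, 5.0, 4.23 and 2.13 TPM with JQ1 and 10.3, 13.7 and 15.4 TPM with vehicle. On the log2(TPM + 1) scale it had the lowest fold change of the 60 members with each compound, -1.04 (SE 0.30, adjusted p = 0.0424) with FIDAS-5 and -1.59 (SE 0.30, adjusted p = 0.00349) with JQ1. As a ratio of mean TPM, JQ1 over vehicle, RRP15 was lower (0.257) than UTP20 (0.289). The FIDAS-5 call was lost without FIDAS-5 replicate 2 or 3, JQ1 replicate 2 or vehicle replicate 2 or 3 (adjusted p up to 0.146). RRP9, a protein of the U3 snoRNP that docks in the processome, was at 16.8, 15.7 and 16.4 TPM with FIDAS-5, 13.9, 13.7 and 12.6 TPM with JQ1 and 21.2, 25 and 21.2 TPM with vehicle. It was lower with FIDAS-5 (-0.43, SE 0.12, adjusted p = 0.0302) and JQ1 (-0.70, SE 0.12, adjusted p = 0.00174), with no overlap between the 3 groups, but the FIDAS-5 call was lost without any 1 of the FIDAS-5 libraries, JQ1 replicate 2 or vehicle replicate 2 or 3 (adjusted p up to 0.101). IMP4, which joins U3 to the precursor, was at 16.3, 13.7 and 13.6 TPM with FIDAS-5, 16.6, 17 and 14.6 TPM with JQ1 and 22.8, 23 and 21.1 TPM with vehicle, with log2 fold changes of -0.59 (SE 0.12, adjusted p = 0.0105) with FIDAS-5 and -0.45 (SE 0.12, adjusted p = 0.0185) with JQ1. Leaving out replicate 3 of the compound ended each call (adjusted p = 0.0550 with FIDAS-5 and 0.0516 with JQ1). Its partner IMP3, the most abundant gene of this role, was at 85.5, 82.1 and 77.5 TPM with FIDAS-5, 78.3, 78.5 and 74.9 TPM with JQ1 and 97.5, 121 and 93.5 TPM with vehicle and was called lower with JQ1 (-0.42, SE 0.13, adjusted p = 0.032), a call lost in 10 of 22 alternatives, among them each JQ1 library, FIDAS-5 replicate 3 or vehicle replicate 2 left out.

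NOB1, the endonuclease that makes the last cut of the small subunit RNA, was at 68.5, 55.6 and 63.6 TPM with FIDAS-5, 44.2, 42.8 and 42.2 TPM with JQ1 and 81.9, 77.3 and 73.2 TPM with vehicle. The JQ1 libraries were the lowest and the closest together (-0.83, SE 0.12, adjusted p = 0.000865). PNO1, which holds NOB1 in place, changed by -1.07 with JQ1. The early-binding processome proteins UTP4, UTP15, WDR43, WDR75 and HEATR1 were each called lower with JQ1, by -0.81, -1.12, -1.16, -1.18 and -1.09. The call of WDR75 was lost without vehicle replicate 2 or 3, and that of HEATR1 without JQ1 replicate 3 or vehicle replicate 1 or 3 (adjusted p up to 0.0642 and 0.0869). The 3 genes of this role that were not called were RCL1 at 3.55 ± 0.108 TPM, NOL6 at 17.3 ± 0.73 TPM and NOC4L at 4.58 ± 0.556 TPM with JQ1, against 3.91 ± 0.824, 18.2 ± 4.81 and 3.78 ± 0.615 TPM with vehicle. NOC4L had the highest log2 fold change of all members with JQ1, 0.23 (adjusted p = 0.228).

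Of the 22 genes of large subunit assembly 18 were called lower with JQ1 (median -0.87) and 2 with FIDAS-5 (median -0.26). These are 81.8% and 9.09%, and the FIDAS-5 share is near the 7.6% of all tested genes. This role held the 4 members with the smallest adjusted p for JQ1. NOP16, a nucleolar protein of the early large subunit particle, was at 12.9, 10.8 and 11.8 TPM with FIDAS-5, 4.94, 4.88 and 4.48 TPM with JQ1 and 14.5, 18.5 and 14.3 TPM with vehicle. The JQ1 libraries lay far below all others and close together, and the log2 fold change was -1.53 (SE 0.14, adjusted p = 7.2e-05) with JQ1 and -0.38 (SE 0.14, adjusted p = 0.0833) with FIDAS-5. PPAN, the human counterpart of a yeast large subunit factor, was at 5.40, 4.91 and 6.27 TPM with FIDAS-5, 2.39, 2.35 and 2.25 TPM with JQ1 and 6.32, 7.56 and 6.52 TPM with vehicle (JQ1 against vehicle -1.22, SE 0.13, adjusted p = 0.000144). RRS1, which with RPF2 brings in the 5S ribosomal RNA, was at 11.6, 9.28 and 11.6 TPM with FIDAS-5, 5.63, 5.09 and 4.82 TPM with JQ1 and 15.3, 21 and 15.2 TPM with vehicle. Its 3 groups did not overlap, and it was called with FIDAS-5 (-0.61, SE 0.16, adjusted p = 0.0266) and with JQ1 (-1.54, SE 0.16, adjusted p = 0.000148). Its FIDAS-5 call was lost without any 1 of the FIDAS-5 libraries or vehicle replicate 2 (adjusted p up to 0.0893). WDR74, which acts with the ATPase NVL, was at 20.2, 16.3 and 17.6 TPM with FIDAS-5, 8.29, 8.80 and 7.63 TPM with JQ1 and 19.5, 23.4 and 19.7 TPM with vehicle, with JQ1 libraries below all others and FIDAS-5 and vehicle libraries overlapping (-1.24, SE 0.13, adjusted p = 0.000181, with JQ1 and -0.20, SE 0.13, adjusted p = 0.326, with FIDAS-5).

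The 3 genes of the PeBoW complex, PES1, BOP1 and WDR12, had different calls, and the differences between them were not tested. WDR12 was at 17, 14.3 and 10.9 TPM with FIDAS-5, 10.6, 9.0 and 6.03 TPM with JQ1 and 20.8, 29.1 and 24.7 TPM with vehicle, called lower with FIDAS-5 (-0.79, SE 0.23, adjusted p = 0.0405) and JQ1 (-1.46, SE 0.23, adjusted p = 0.00131). Its FIDAS-5 call was lost without FIDAS-5 replicate 2 or 3, JQ1 replicate 2 or vehicle replicate 2 or 3 (adjusted p up to 0.144). PES1, the most abundant gene of large subunit assembly here, was at 62.2, 51.2 and 52.7 TPM with FIDAS-5, 39.4, 41.8 and 41.9 TPM with JQ1 and 72.3, 66 and 62.5 TPM with vehicle, and was called with JQ1 (-0.69, SE 0.12, adjusted p = 0.00255) but not with FIDAS-5 (-0.27, SE 0.12, adjusted p = 0.159). BOP1 was at 12.2, 11 and 12.5 TPM with FIDAS-5, 11.6, 13.1 and 11.7 TPM with JQ1 and 13.9, 8.61 and 14.5 TPM with vehicle, and its groups overlapped (JQ1 against vehicle 0.01, adjusted p = 0.975). NOP2, a methyltransferase of the large subunit RNA, was at 37.5, 28.3 and 34.5 TPM with FIDAS-5, 16.4, 18.6 and 15.2 TPM with JQ1 and 33.2, 33.9 and 30.7 TPM with vehicle. FIDAS-5 and vehicle libraries overlapped and the JQ1 libraries lay below both (-0.93, SE 0.14, adjusted p = 0.00112). GNL3, the GTPase nucleostemin, changed by -1.30 with JQ1, RRP15 by -1.40, NIP7 by -1.07 and the RPL3 chaperone GRWD1 by -0.84. Not called with JQ1 were RRP1, its relative RRP1B, GNL2 and BOP1.

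Set directly against FIDAS-5, JQ1 gave lower levels in 22 of the 60 members and higher levels in none (36.7%, where 18.5% of all tested genes were called lower, 16.4% higher and 34.8% either way). All 3 JQ1 libraries lay below all 3 FIDAS-5 libraries in 33 members (55%, against 25% of all genes) and above them in 1, UBTF (22.7% of all genes). The doses and targets of the compounds differ, so the values stand side by side at 5 uM FIDAS-5 and 0.5 uM JQ1. The median log2 fold change of JQ1 against FIDAS-5 was -0.53 over the members and 0.05 over all tested genes. Large subunit assembly gave 12 of the 22, with the steepest differences in NOP16 (-1.15, SE 0.14, adjusted p = 0.000256), WDR74 (-1.04, SE 0.13, adjusted p = 0.000417), PPAN (-0.97, SE 0.13, adjusted p = 0.00046) and NOP2 (-0.95, SE 0.14, adjusted p = 0.000975). BYSL, which accompanies the small subunit precursor to the cytoplasm, was at 5.43, 6.0 and 6.10 TPM with JQ1, against 12, 9.12 and 10.6 TPM with FIDAS-5 (-0.75, SE 0.13, adjusted p = 0.00193). The vehicle libraries of BYSL, at 9.68, 9.65 and 10.0 TPM, overlapped with those of FIDAS-5. MYBBP1A and RRP12, which had log2 fold changes above 0 with FIDAS-5 without a call, differed by -1.09 and -0.99 between the compounds. In the H/ACA snoRNPs NHP2, GAR1 and NOP10 were lower with JQ1 than with FIDAS-5 (-0.53, -0.98 and -0.54), NOP10 not without FIDAS-5 replicate 1 (adjusted p = 0.0619). No difference was called in the C/D box core: FBL was at 68, 77.7 and 73.9 TPM with JQ1, against 93.8, 92.4 and 89.3 TPM with FIDAS-5, which do not overlap (-0.33, SE 0.12, adjusted p = 0.0625).

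Of the 8 members called with FIDAS-5, 2, RRS1 and WDR12, were also called lower with JQ1 than with FIDAS-5. In that comparison 36.7% of the members and 18.5% of all tested genes were called lower. WDR12 lost that call without any 1 of 7 libraries, that is any but FIDAS-5 replicate 3 and JQ1 replicate 1 (adjusted p up to 0.143). FBL, RRP9 and UTP20 had log2 fold changes of -0.33, -0.27 and -0.56 there without a call (adjusted p = 0.0625, 0.108 and 0.191). All JQ1 libraries of FBL and RRP9 lay below their FIDAS-5 libraries. NPM1, TCOF1 and IMP4 had log2 fold changes of 0.17 (SE 0.24, adjusted p = 0.636), 0.14 (SE 0.13, adjusted p = 0.464) and 0.14 (SE 0.12, adjusted p = 0.437) between the compounds, which does not show that the compounds act alike on them. The deviations of FIDAS-5 and JQ1 libraries with the same replicate number were correlated across genes (0.260, 0.102 and 0.422). Libraries with different numbers were not compared, so pairing by number is only a hint from the data. On that hint the direct comparison was also fitted with the number as a block. It then called 23 members lower over all 9 libraries (38.3%, against 19.2% of all genes), with UTP4 no longer among them (adjusted p = 0.0680). With only the 6 libraries compared it called 37 (61.7%, against 23.8% of all genes). The count was 34 with median-of-ratios scaling (56.7%, against 21.2% of all genes), 37 with protein-coding genes only (61.7%, against 25.2%) and 39 with the GC trend removed (65%, against 26.1%). With single libraries left out it ran from 16 without FIDAS-5 replicate 1 (26.7%, against 13.7%) to 24 without vehicle replicate 2 (40%, against 19.4%).

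**Figure D4:**
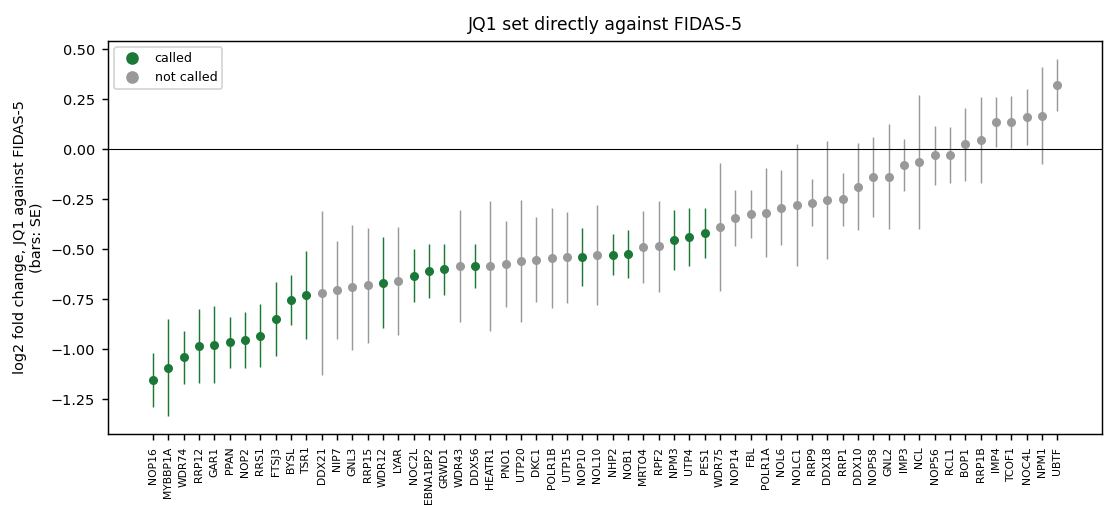
Log2 fold change of JQ1 against FIDAS-5 (y axis, bars SE) for the 60 members in rising order (x axis), green where called. The 22 called members all lie below 0, from NOP16 at -1.15 to PES1 at -0.42, and UBTF at 0.32 is the highest.

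The members differed in how closely their replicates agreed, and in the treated groups this followed the GC content of their transcripts. JQ1 replicate 3 was the lowest of its group in 44 of 60 members, and FIDAS-5 replicate 1 the highest of its group in 52. Across the 60 members the departure of JQ1 replicate 3 from its group mean rose with GC content (Spearman 0.82), as did that of FIDAS-5 replicate 3 (0.70), while those of JQ1 replicate 1 (-0.81) and FIDAS-5 replicate 1 (-0.68) fell. Over the 13042 tested genes with a GC value these correlations were 0.64, 0.55, -0.65 and -0.51. Genes of a library share its preparation, so these values describe the libraries. The members lay on either side of a gap, with 18 at 38.2 to 43.8% GC and 42 at 46.2 to 65.7%, and the division at 45% was made after the values were seen. In the 18 members of low GC content the median departure of JQ1 replicate 3 was -0.51 on the log2 scale, and in the other 42 it was -0.06. UTP20, WDR12, NPM1 and DDX21 belong to the first group, and NOP16, RRS1, PPAN, WDR74, FBL and NHP2 to the second.

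**Figure D5:**
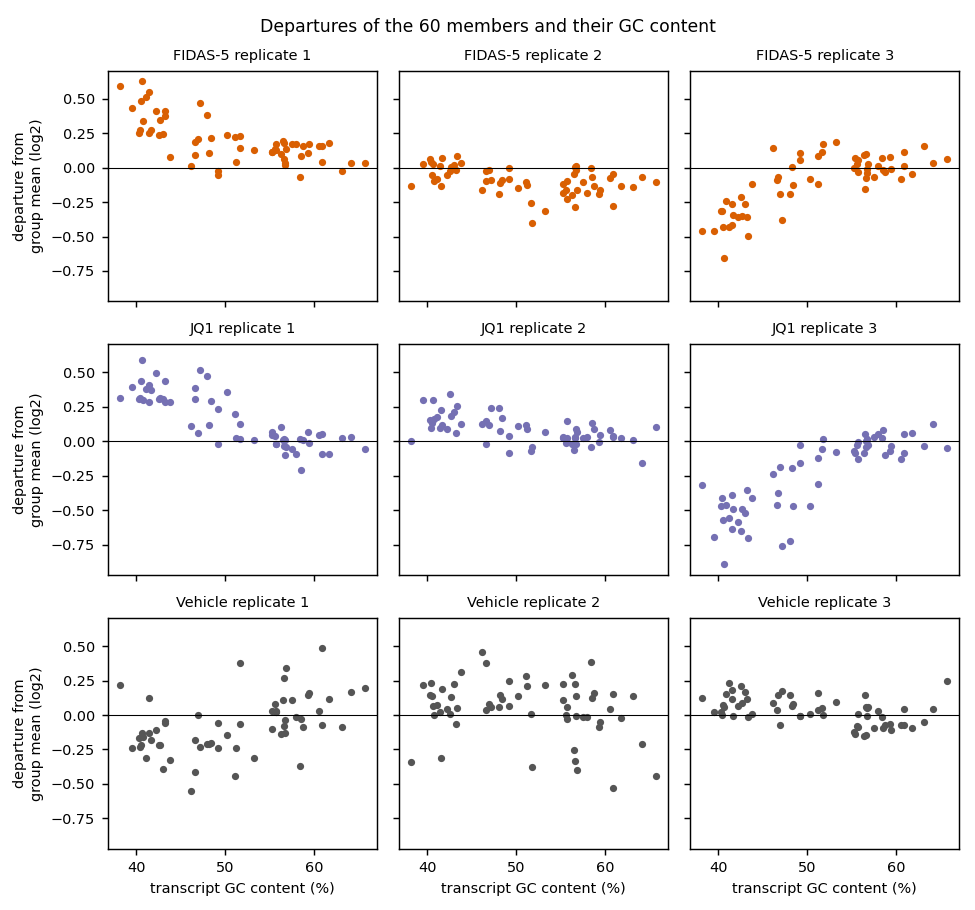
Departure of each of the 60 members from its group mean (y axis, log2) against the median GC content of its transcripts (x axis, %), a panel per library. Replicate 3 of both treated groups lies below 0 at low GC content and replicate 1 of both lies above it, while the vehicle libraries have Spearman values of 0.52, -0.25 and -0.48.

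The falls with JQ1 were present on both sides of that gap. Of the 18 members of low GC content 17 were called lower with JQ1 (median log2 fold change -1.10), where 18.7% of the 4178 tested genes under 45% GC were called lower (median -0.16). Of the 42 others 31 were called lower (median -0.71), where 20.3% of 8864 genes were (median 0.07). With the GC trend removed from every library, 18 and 36 were called lower with medians of -0.94 and -0.82, where 27.5% of all genes were called lower. With FIDAS-5 the medians were -0.60 in the 18 and -0.27 in the 42 members, where those of all genes on the same sides were -0.21 and 0.08. With the GC trend removed they were -0.38 and -0.36, and 9 and 18 members were called lower, where 15.5% of all genes were. The part of GC content in the values as deposited was not otherwise tested.

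The pathway has many more genes than these members. Of 110 others, listed from general knowledge and all tested, 54 were called lower with JQ1 and 3 higher (49.1% and 2.73%, where 19.4% and 19% of all tested genes were). With FIDAS-5 16 were called lower and 2 higher (14.5% and 1.82%, where 7.6% and 12.6% of all tested genes were). The count of 16 was 5 without FIDAS-5 replicate 3, 6 without FIDAS-5 replicate 2 and 7 without vehicle replicate 2 or 3 (4.55 to 6.36%, against 3.86 to 5.42% of all genes). The count of 2 was 0 without FIDAS-5 replicate 1 or vehicle replicate 3, and 1 without FIDAS-5 replicate 3, JQ1 replicate 1 or 2 or vehicle replicate 1. The 3 that were higher with JQ1 were 1 without JQ1 replicate 1 or 2 or vehicle replicate 2. With JQ1 the smallest adjusted p among those that fell were of EXOSC5, a subunit of the exosome that trims ribosomal RNA precursors (-1.83, SE 0.14, adjusted p = 3.47e-05), NLE1, a large subunit factor (-1.17, SE 0.13, adjusted p = 0.00023), and EMG1, a methyltransferase of the small subunit RNA (-1.17, SE 0.14, adjusted p = 0.00034). The 3 that rose were EXOSC6 (0.90), NOP53 (0.48) and NOP9 (0.42). With FIDAS-5 the exosome subunit EXOSC8 (-1.08, SE 0.21, adjusted p = 0.00798), URB2 (-0.63, SE 0.13, adjusted p = 0.0113) and LAS1L, part of a complex that cuts the large subunit precursor (-0.61, SE 0.13, adjusted p = 0.0114), led those that fell. EIF6, which keeps the new large subunit from joining the small one, and the helicase DDX24 rose (0.56 and 0.68). EIF6 was lower with JQ1 than with FIDAS-5 (-0.84, SE 0.12, adjusted p = 0.000979). Between the compounds 32 of the 110 were called lower with JQ1 and 4 higher (29.1% and 3.64%, where 18.5% and 16.4% of all tested genes were). The count of 32 was 17 without FIDAS-5 replicate 1, 20 without JQ1 replicate 2 and 21 without replicate 3 of either compound (15.5 to 19.1%, against 13.7 to 16.3% of all genes). The count of 4 was 0 without FIDAS-5 replicate 2 or JQ1 replicate 1 or 2, and 1 without FIDAS-5 replicate 3 or vehicle replicate 3.

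Several members share sequence with other transcripts. By GENCODE annotation the exons of 24 members overlap exons of a gene on the opposite strand, among them NOP16, NHP2, NOB1, IMP3, IMP4, PES1 and WDR12. Whether the counting used strand is not given in the sources used here, so the separate levels of these genes are uncertain. The exons of 8 members overlap exons of another gene on the same strand: DKC1, GRWD1, HEATR1, NOP2, NOP56, PPAN, RRS1 and WDR74. PPAN shares exons with the read-through gene PPAN-P2RY11, and the first part of WDR74 overlaps a small nuclear RNA gene on its strand. The separate levels of these 8 genes are also uncertain.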

How the data were processed

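The 9 libraries were total RNA of Huh7 cells. The authors deposited 1 TPM value for each gene symbol and library. Salmon and the build hg38 are named in the submitters' processing notes. The Salmon version and annotation are not given in the sources used here. TPM keep no read counts, so depth and counting error are unknown. Values were transformed to log2(TPM + 1), which understates the change of low genes, and 13573 genes that reached 1 TPM in 3 or more libraries were kept. Group means were estimated from the 9 libraries in 1 limma model (limma 3.58.1, R 4.3.3), without a trend in the moderation (6 residual and 2.86 prior degrees of freedom). Tests were two-sided, p-values were adjusted by Benjamini-Hochberg over all tested genes, and genes were called under 0.05. The procedure was also run on simulated data with independent scatter in each gene and library. Such data lack the departures shared between genes that were seen here, so that run cannot speak to them.

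The members, the list of 110 other genes and the tests were chosen with earlier results of these data known, so counts over them are descriptions, set beside the share of all tested genes. Values by library were given for the called members with the smallest adjusted p, the most abundant member of each role, and others named to describe a role, among them UBTF and BOP1, chosen after their values were seen. A listed symbol that in the table names another gene was left out, and 5 others were matched by older symbols. GC content was the median over GENCODE v29 transcripts of a gene. A lowess trend (span 0.3) on it was removed from each library as an alternative. Sequences and coordinates are from RefSeq, GRCh38.p14. Where a gene had several promoter windows the first listed was used. Replicate numbers were checked for pairing: the correlation of deviations was over 0.1 at every number between FIDAS-5 and JQ1 (0.260, 0.102 and 0.422), the rule used to treat them as paired. It was over 0.1 at number 2 alone between FIDAS-5 and vehicle (0.0374, 0.160 and 0.00539) and at none between JQ1 and vehicle (-0.0765, 0.0333 and -0.00203). The value for FIDAS-5 and JQ1 at number 2 is below that for FIDAS-5 and vehicle, and libraries with different numbers were not compared, so the pairing is a hint from the data. Alternatives were a pseudocount of 0.1, no filter, a filter of 5 TPM, median-of-ratios scaling, quantile normalization, protein-coding genes only, the 6 libraries compared, the replicate block, the GC trend removed, a trend in the moderation and libraries left out. The block fitted to only the 6 libraries compared was added after the data were seen. Sequence work and plots used Python 3.11.15 and matplotlib 3.10.9.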

Additional observations from a re-analysis of the deposited data

How the results depend on the processing

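No member was called higher in any comparison under any alternative run, except 1 in JQ1 against FIDAS-5 with the GC trend removed (also 1 with the replicate block and the GC trend removed). Of the called and fully described members' values, 1701 kept direction and side of the threshold across alternatives, 175 lost a call, 11 gained one and 3 turned round: NPM1 in JQ1 against FIDAS-5 without FIDAS-5 replicate 3 (-0.0044) and without JQ1 replicate 1 (-0.018, with a range of -0.018 to 0.41 over libraries left out), and IMP3 with quantile normalization (0.029), none of them called. Calls held under every alternative in 27 of 48 members with JQ1, 14 of 22 between the compounds and 2 of 8 with FIDAS-5 (FBL and TCOF1). The cause of the changes below was not tested.

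Members lower with FIDAS-5 numbered 13 with median-of-ratios scaling, 18 with quantile normalization, 27 with the GC trend removed, 29 with that and the replicate block, 3 with the block in the 6 libraries compared and 2 to 12 without single libraries. With the block in the 6 libraries 5% of members and 6.06% of all genes were lower. With the GC trend removed and the block these shares were 48.3% and 16.7%. Members lower with JQ1 were 29 with the block in the 6 libraries compared (48.3%, against 11.8% of all genes). They were 37 to 47 without single libraries (61.7 to 78.3%, against 14.5 to 19.3%). Members lower in JQ1 against FIDAS-5 were 34 with median-of-ratios scaling, 37 with protein-coding genes only and 39 with the GC trend removed with or without the block. The count of 39 is 65% of the members, against 27.5% of all genes with the block and 26.1% without it. Members lower there were 37 with the block in the 6 libraries compared and 16 to 24 without single libraries. The replicate numbers did not meet the rule for pairing vehicle with treated libraries, so a call lost under the block there is not a weaker effect. Over all 9 libraries the block gave 10 members lower with FIDAS-5 (16.7%, against 8.37% of all genes). It gave 47 with JQ1 (78.3%, against 20.7%) and 23 between the compounds (38.3%, against 19.2%).

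Of the 110 other genes, those lower with FIDAS-5 were 31 with quantile normalization (28.2%, against 12.9% of all genes). They were 28 with the GC trend removed (25.5%, against 15.5%) and 32 with that and the block (29.1%, against 16.7%). The count was 7 with the block in 6 libraries (6.36%, against 6.06%). It was 5 to 20 without single libraries (4.55 to 18.2%, against 3.86 to 10.9%). Those higher with FIDAS-5 were 5 with median-of-ratios scaling, 5 with protein-coding genes only, 1 in the 6 libraries compared, 5 with the GC trend removed, 7 with that and the block, 0 with the block in 6 libraries and 0 to 3 without single libraries. Those lower with JQ1 were 34 with the block in 6 libraries (30.9%, against 11.8% of all genes). They were 38 to 57 without single libraries (34.5 to 51.8%, against 14.5 to 19.3%). Those higher with JQ1 were 5 with the GC trend removed, 6 with that and the block, 1 with the block in 6 libraries and 1 to 4 without single libraries. Those lower in JQ1 against FIDAS-5 were 49 with protein-coding genes only (44.5%, against 25.2% of all genes). They were 55 with the GC trend removed (50%, against 26.1%) and 59 with that and the block (53.6%, against 27.5%). The count was 17 without replicate 3 of both compounds (15.5%, against 14.5%). It was 17 to 30 without single libraries (15.5 to 27.3%, against 13.7 to 19.4%). Those higher there were 2 with median-of-ratios scaling, 1 with protein-coding genes only, 2 with the replicate block, 2 without replicate 3 of both compounds and 0 to 4 without single libraries. Of all 13042 to 13573 genes the fits named for higher calls gave 944 to 2572 higher with FIDAS-5. They gave 1500 to 3655 higher with JQ1 and 1238 to 3105 between the compounds. All genes called were 4416 with FIDAS-5 with the GC trend removed, 4751 with that and the block, and 1461 to 3304 without single libraries. With JQ1 they were 3102 with the block in 6 libraries, and between the compounds 2991 with the filter of 5 TPM and 7143 with the GC trend removed and the block. The median over all genes moved by more than 0.1 (log2) only where libraries were left out, to 0.11 for JQ1 against vehicle without JQ1 replicate 3, for example.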

Other observations

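Several members have snoRNA genes inside their spans, so a second kind of transcript comes from the same loci. By GENCODE annotation SNORA56 shares exon bases with its host DKC1. RefSeq places 26 snoRNA genes inside members, of which 23 have a strand in the annotation and lie on the member's strand, in 8 host genes, and 20 were tested. With JQ1 3 were called lower and none higher, and with FIDAS-5 1 was called lower and none higher. Among all tested genes 19.4% were called lower with JQ1 and 7.6% with FIDAS-5, larger shares than these 3 of 20 and 1 of 20, so the values below are a description. SNORD69, inside GNL3, was at 66.4, 35.0 and 81.5 TPM with FIDAS-5, 24.0, 38.2 and 31.1 TPM with JQ1 and 119, 93.9 and 106 TPM with vehicle (JQ1 against vehicle -1.76, adjusted p = 0.00192). SNORD53B, inside WDR43, was at 21.7, 21.8 and 24.6 TPM with FIDAS-5, 23.6, 18.7 and 11.1 TPM with JQ1 and 43.3, 34.0 and 42.5 TPM with vehicle (JQ1 against vehicle -1.18, adjusted p = 0.00507). The third with JQ1 was SNORD20, inside NCL (-0.92, adjusted p = 0.0250), and the one with FIDAS-5 was SNORA51, inside NOP56 (-0.75, adjusted p = 0.0493). The other tested snoRNAs in the same hosts were not called, such as SNORD19 in GNL3 at 11.2, 19.5 and 3.20 TPM with FIDAS-5, 4.07, 9.71 and 8.68 TPM with JQ1 and 4.53, 10.0 and 10.1 TPM with vehicle. SNORD69 was also the one called lower in JQ1 against FIDAS-5 (-0.89, adjusted p = 0.0460).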
